A study of Homo sapiens with 16 samples.

Results

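The 8 genes described here encode the FOXA, HNF4 and ONECUT transcription factors of the liver: FOXA1, FOXA2, FOXA3, HNF4A, HNF4G, ONECUT1, ONECUT2 and ONECUT3. They were taken by name from 19970 protein-coding genes on chromosomes 1 to 22 and X, and each was examined over its body and within 2 kb of both annotated gene ends in every deposited peak list. The lists come from chromatin immunoprecipitation and sequencing (ChIP-seq), in which DNA bound by a protein or carrying a histone mark is enriched with an antibody and sequenced. JARID2 was mapped in HepG2, a liver carcinoma cell line, and JARID2, EZH2 and H3K27me3 in THLE-2, an immortalised epithelial line from non-tumour liver. Each of these 4 groups has 2 immunoprecipitated (IP) libraries, described by the series as biological replicates, each with its own input, 16 samples in all. The labels name no drug treatment and no engineered allele in any group, and all cells were fixed in 1% formaldehyde for 10 min and sheared to 200 to 500 bp. Each line stands for its tissue as 1 cell line, HepG2 has no EZH2 or H3K27me3 library used here, and peak lists hold no expression by which the liver identity of either line could be checked.

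FOXA factors are forkhead proteins that bind compacted chromatin and open liver enhancers to other factors. HNF4A is the nuclear receptor at the centre of the hepatocyte gene programme, HNF4G is its close relative, and the ONECUT factors, of which ONECUT1 is also called HNF6, are cut-homeodomain proteins of the developing liver, bile duct and pancreas. EZH2 is the methylating enzyme of Polycomb repressive complex 2, H3K27me3 is the mark that it leaves on histone H3, and JARID2 is an accessory subunit that helps to bring the complex to DNA. Polycomb commonly occupies the CpG-rich starts of silent developmental regulators.

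In THLE-2, EZH2 peaks in both replicates lay at FOXA2 and at all 3 ONECUT genes, in domains of 4129 to 13073 bp that overlapped between replicates. FOXA1, HNF4A and HNF4G had no EZH2 peak over the gene or within 2 kb of it in either list, and FOXA3 had one in replicate 2 alone. H3K27me3 was called in both replicates at HNF4A, ONECUT1 and ONECUT2, in replicate 2 alone at FOXA2, and in neither at ONECUT3. JARID2 was called in both THLE-2 replicates at a gene end of FOXA2 only. In HepG2, the sole member with JARID2 in both replicates was HNF4G, at different places inside the gene.

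The libraries differ in depth and in how many peaks were called. Filtered IP tags numbered 7.95 and 14.6 M in the HepG2 JARID2 libraries, which gave 15738 and 4090 peaks, against 11.7 and 13.0 M tags and 5356 and 5532 peaks for THLE-2 JARID2. EZH2 had 29.6 and 32.4 M tags with 2112 and 3690 peaks, and H3K27me3 had 39.0 and 38.1 M tags with 46198 and 90524 peaks. Median false discovery rates, as the authors give them, were 1.29% and 100% for HepG2 JARID2 replicates 1 and 2, 15.81% and 44.23% for THLE-2 JARID2, and 100% for every EZH2 and H3K27me3 list. A gene with no peak is one at which the authors' peak caller, MACS, called none, and is not shown to be unbound. The fold enrichment of a peak, its tag count and its score are the authors' values, and ranks hold within 1 list.

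**Figure D1:**
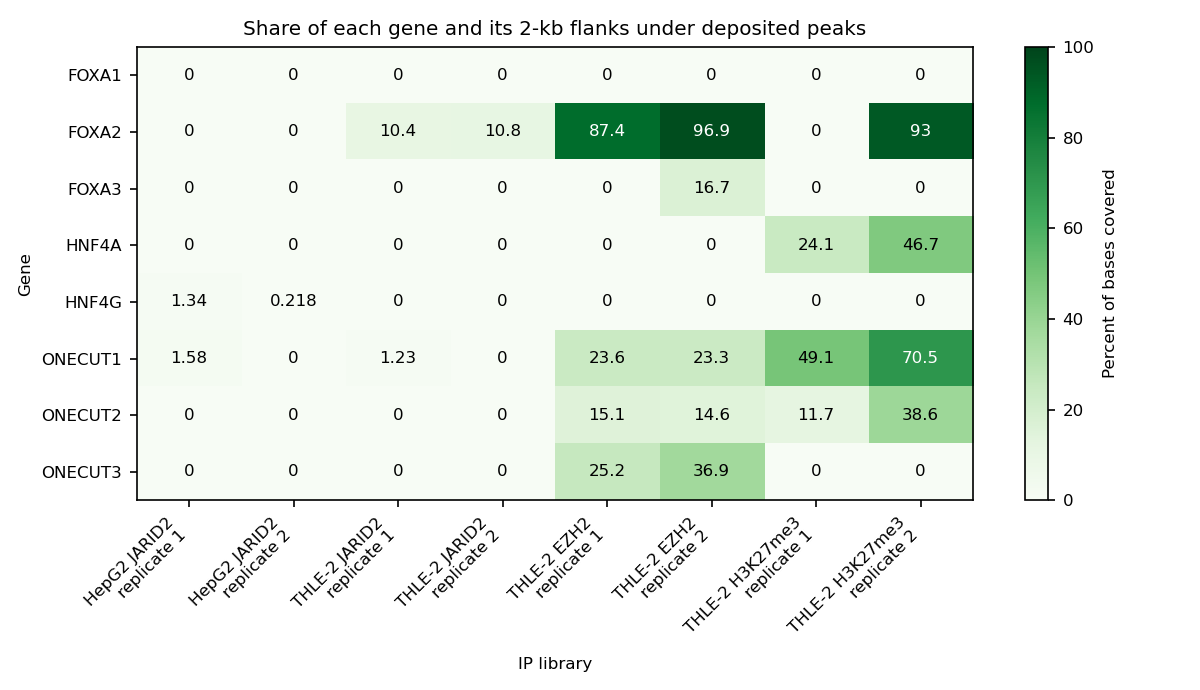
Percentage of each gene with its 2-kb flanks that lay under peaks, by gene (down) and by library (across, in the order of the groups), with the colour scale in percent. FOXA2 reached 87.4% and 96.9% in the EZH2 libraries and 0% and 93.0% in the H3K27me3 libraries, and FOXA1 was at 0% throughout.

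ONECUT1, on chromosome 15 from 52755053 to 52790336 on the minus strand, had 1 EZH2 domain over its start in each replicate. The domain ran from 52782820 to 52792082 in replicate 1, with 1377 tags and a fold enrichment of 7.83. In replicate 2 it ran from 52782766 to 52791914, with 1637 tags and a fold enrichment of 5.94. The edges differed by 54 and 168 bp, and 97.6% of the joint extent was shared, so the domain was placed almost identically in both libraries. A long non-coding RNA gene, LOC105370824, lies 94 bp beyond the ONECUT1 start and partly under the same domain. Of the ONECUT1 gene with its flanks, 23.6% and 23.3% lay under EZH2 peaks (23.4% ± 0.205, SD, n = 2), and 1.97% and 2.02% of all protein-coding genes were covered further. The mean over all protein-coding genes was 1.43% and 1.49%.

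ONECUT2, a paralog of ONECUT1 with overlapping roles in liver and pancreas development, lies on chromosome 18 from 57435374 to 57491298 on the plus strand. Its EZH2 domain ran from 57432843 to 57442444 in replicate 1, with 1017 tags and a fold enrichment of 8.41, and from 57433378 to 57442128 in replicate 2, with 1084 tags and a fold enrichment of 6.77. The domain took in the start and the first several kilobases of the gene, and the replicates shared 91.1% of its joint extent. Of the gene and its flanks, 15.1% and 14.6% were covered (14.9% ± 0.378, SD, n = 2).

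ONECUT3, known mostly from neural and endocrine development, lies on chromosome 19 from 1753506 to 1780988. It had the strongest and widest EZH2 domain of the 8 genes in both lists. In replicate 1 the domain ran from 1747776 to 1759454, 11679 bp with 2236 tags and a fold enrichment of 15.14, rank 49 by fold and 50 by length of 2081 peaks. In replicate 2 it ran from 1747863 to 1760935, 13073 bp with 2459 tags and a fold enrichment of 13.54, rank 24 by fold and 35 by length of 3637 peaks. A second, weaker peak with a fold enrichment of 4.36 followed it in replicate 2, from 1761160 to 1763345. Coverage of the gene and its flanks was 25.2% and 36.9% (31.1% ± 8.24, SD, n = 2), and the domain lay at the lower-numbered gene end in both libraries.

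The EZH2 domains of ONECUT1 and ONECUT2 covered the whole annotated promoter of each gene, 250 bp before to 50 bp after the start, 300 bp in all. The sequences below are RefSeq promoters of GRCh38.p14. Promoters of 5 of the 8 genes were used, FOXA1, FOXA3, HNF4A (2 starts), ONECUT1 and ONECUT2. The sequences are shown 5′ to 3′ on the gene's strand with CpG sites in capitals, because the promoters differ in CpG content. ONECUT1 and ONECUT2 carried EZH2, FOXA1 carried no peak, and the HNF4A starts lay without EZH2. ONECUT1 is at chr15:52790287-52790586 (minus strand), ONECUT2 at chr18:57435124-57435423 (plus strand), FOXA1 at chr14:37595200-37595499 (minus strand), and the first and the inner start of HNF4A at chr20:44355449-44355748 and chr20:44400989-44401288 (both plus strand).
ONECUT1: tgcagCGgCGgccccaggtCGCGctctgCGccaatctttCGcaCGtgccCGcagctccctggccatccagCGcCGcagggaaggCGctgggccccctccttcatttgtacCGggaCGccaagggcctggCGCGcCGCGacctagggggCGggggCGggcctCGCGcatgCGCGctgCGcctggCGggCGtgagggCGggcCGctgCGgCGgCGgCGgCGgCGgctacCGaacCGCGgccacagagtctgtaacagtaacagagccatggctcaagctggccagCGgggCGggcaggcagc
ONECUT2: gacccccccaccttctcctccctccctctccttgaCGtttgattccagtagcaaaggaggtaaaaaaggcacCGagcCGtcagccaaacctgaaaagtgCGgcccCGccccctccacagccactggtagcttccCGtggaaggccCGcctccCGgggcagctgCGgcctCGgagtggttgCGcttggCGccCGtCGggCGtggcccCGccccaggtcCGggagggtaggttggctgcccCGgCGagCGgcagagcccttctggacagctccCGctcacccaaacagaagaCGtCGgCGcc
FOXA1: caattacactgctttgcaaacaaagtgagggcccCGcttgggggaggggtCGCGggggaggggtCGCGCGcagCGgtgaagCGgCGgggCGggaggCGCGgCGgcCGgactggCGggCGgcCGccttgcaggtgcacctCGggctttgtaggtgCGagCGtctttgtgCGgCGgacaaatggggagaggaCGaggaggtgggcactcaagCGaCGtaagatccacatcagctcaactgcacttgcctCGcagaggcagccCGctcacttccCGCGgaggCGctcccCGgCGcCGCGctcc
HNF4A first start: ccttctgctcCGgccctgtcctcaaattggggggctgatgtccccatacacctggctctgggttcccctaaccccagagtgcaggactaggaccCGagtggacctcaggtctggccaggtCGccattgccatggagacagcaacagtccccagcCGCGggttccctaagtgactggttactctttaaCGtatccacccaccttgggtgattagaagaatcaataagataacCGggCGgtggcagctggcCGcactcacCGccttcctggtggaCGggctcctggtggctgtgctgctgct
HNF4A inner start: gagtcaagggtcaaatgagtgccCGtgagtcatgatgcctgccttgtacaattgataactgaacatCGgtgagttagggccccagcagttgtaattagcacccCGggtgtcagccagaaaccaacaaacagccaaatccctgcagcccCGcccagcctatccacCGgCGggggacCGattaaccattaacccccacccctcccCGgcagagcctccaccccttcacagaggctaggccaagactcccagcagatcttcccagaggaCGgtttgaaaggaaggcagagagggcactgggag

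The ONECUT1 promoter held 39 CpG sites, with an observed over expected ratio of 0.927, and the ONECUT2 promoter 24, with a ratio of 0.703. FOXA1 held 34 sites (0.966) and FOXA3, the forkhead factor of mature hepatocytes and gut, 37 (0.849). The 2 HNF4A promoters held 11 and 9 sites (0.409 and 0.364), below the median of 21 (0.738) over 22131 promoters of 15811 protein-coding genes. Promoters with more CpG sites than the median had EZH2 in both replicates (ONECUT1, ONECUT2), in replicate 2 alone (FOXA3) or in neither (FOXA1), and the HNF4A promoters, which had the fewest, had no EZH2. With 5 genes this is a description and was not tested. FOXA2 and ONECUT3 had no promoter entry. HNF4G was left out when the promoters were selected, so its promoter was not examined and it is not shown to lack an entry.

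**Figure D2:**
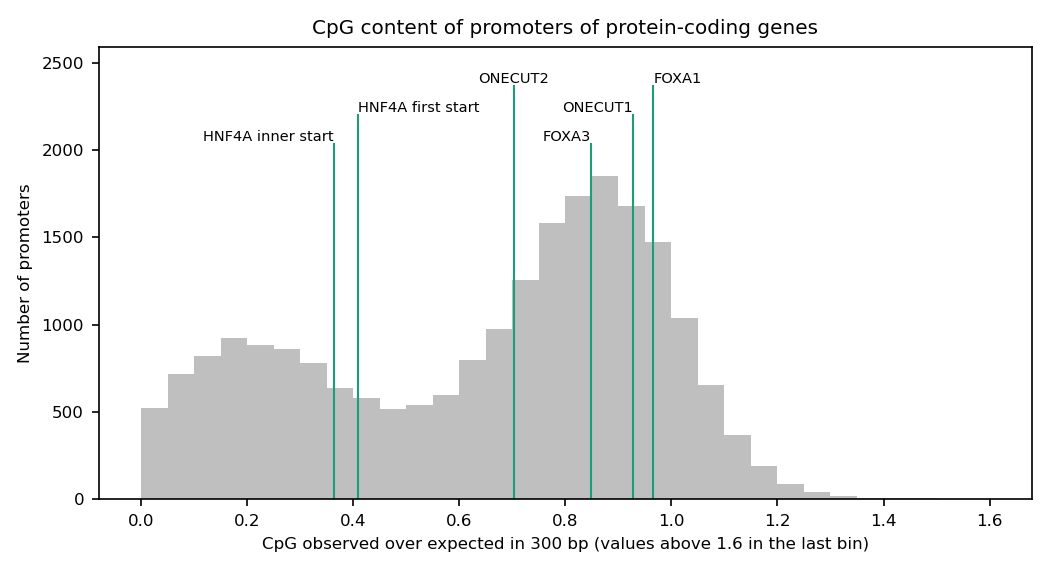
Number of protein-coding promoters (vertical axis) by CpG observed over expected ratio in 300 bp (horizontal axis), with lines at the 6 promoters of 5 member genes. ONECUT1, FOXA1 and FOXA3 lie in the CpG-rich mode, ONECUT2 at 0.703 near the median of 0.738, and both HNF4A starts below 0.5.

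Overlap with the 300-bp promoter was complete for ONECUT1 in HepG2 JARID2 replicate 1, in both EZH2 libraries and in H3K27me3 replicate 2. It was complete for ONECUT2 in both EZH2 libraries and in H3K27me3 replicate 2, for FOXA3 in EZH2 replicate 2, and for the inner start of HNF4A in H3K27me3 replicate 2, under a peak from 44398668 to 44404417 with 511 tags and a fold enrichment of 4.19. That peak ranked 89009 of 90461 by fold, near the bottom of its list, and H3K27me3 replicate 1 covered 0 bp of this promoter. The promoter of FOXA1 and the first start of HNF4A were under no peak. Over all promoters, 4.73% and 5.05% were touched by EZH2 peaks, 2.54% and 11.2% by H3K27me3 peaks, 13.6% and 0.0813% by HepG2 JARID2 peaks, and 1.66% and 2.10% by THLE-2 JARID2 peaks. The letters TGTTTAC, a core of forkhead sites, and CAAAGTC, a core of HNF4 sites, were in none of the 6 promoters on either strand, and 2.85% and 3.0% of all promoters held them. ATTGAT, a core of ONECUT sites, occurred once in each HNF4A promoter, on the minus strand at the first start and on the plus strand at the inner start, against 4.71% of all promoters on either strand.

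In replicate 1, 4 of the 8 members had an EZH2 peak at a gene end, where 5.92% of protein-coding genes did, and 5 in replicate 2, where 6.54% did. In both replicates it was 4, FOXA2 and the 3 ONECUT genes, beside 4.88% of protein-coding genes. All 4 had the peak at the same gene end in both libraries, beside 4.87% of protein-coding genes. For H3K27me3 that stricter count was 3 (beside 6.41%), for THLE-2 JARID2 1 (beside 0.280%) and for HepG2 JARID2 0 (beside 0.0851%). Counted over the gene body and its flanks, EZH2 peaks were at 4 members in replicate 1 (beside 7.29%), 5 in replicate 2 (beside 9.74%) and 4 in both (beside 5.84%). Requiring the summit of the peak, its highest point, inside the 2-kb window left FOXA2 and ONECUT2, because the ONECUT1 summit lies deeper inside the gene and the ONECUT3 summit farther outside it.

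**Figure D3:**
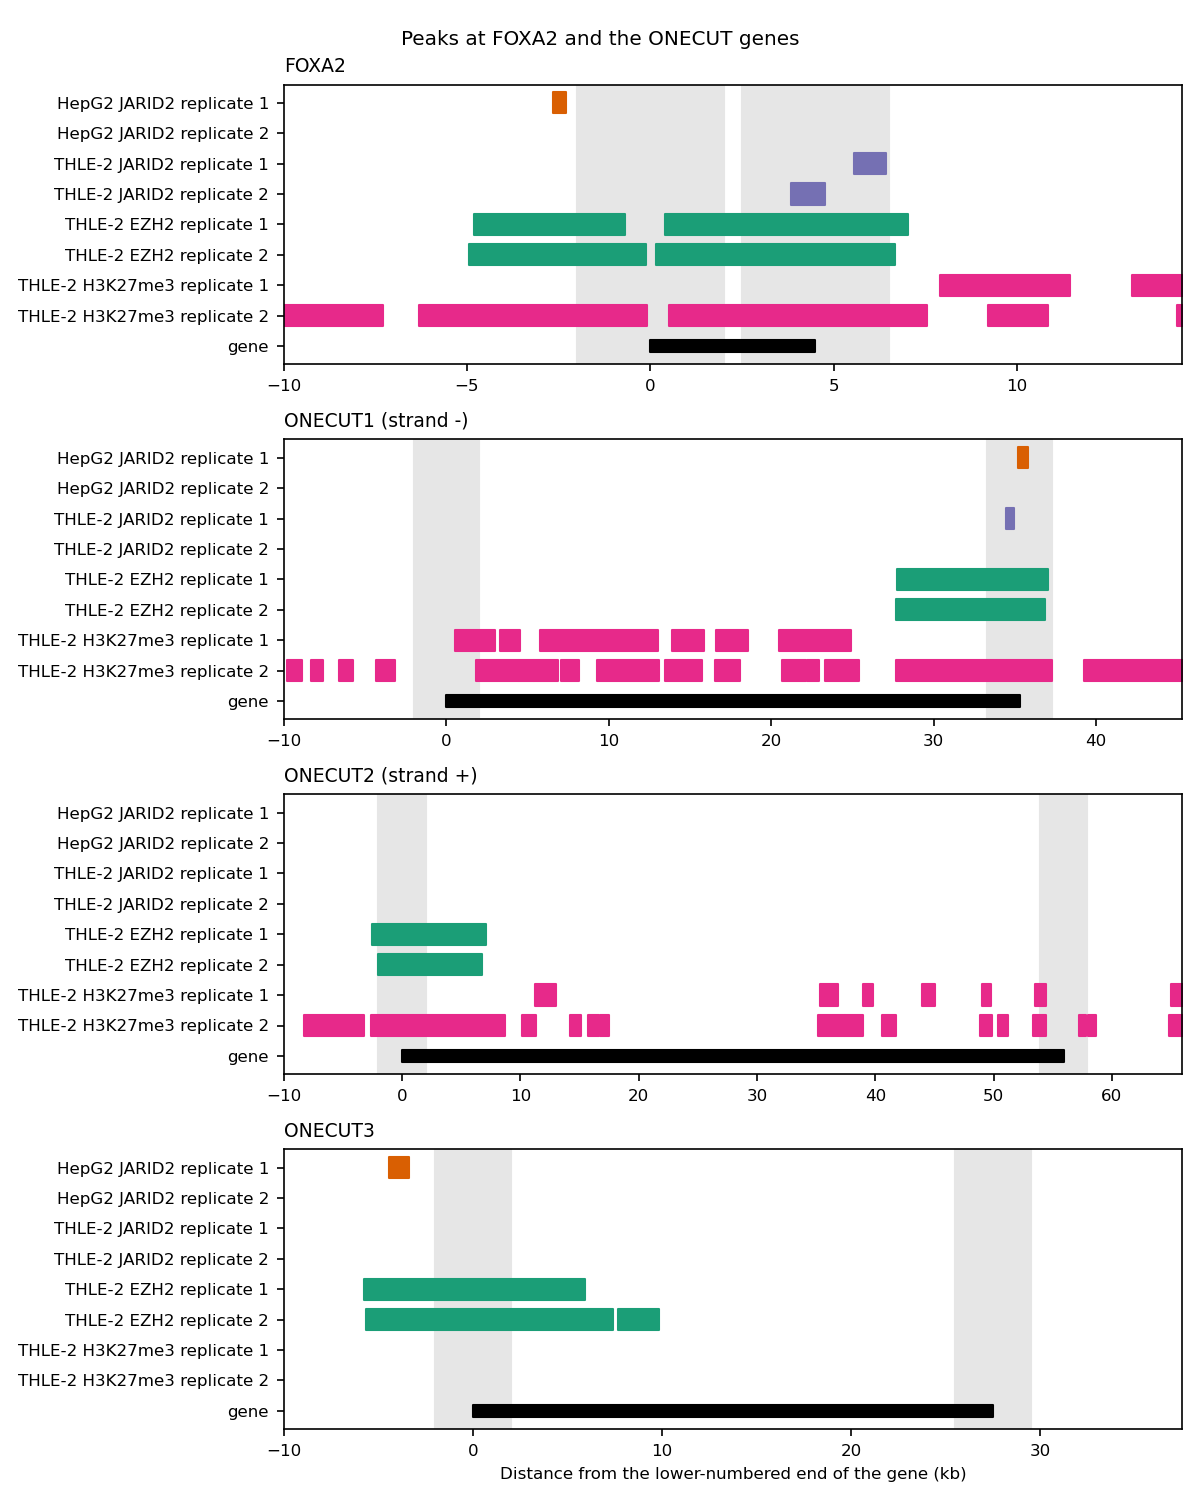
Peaks of the 8 libraries (rows) around FOXA2, ONECUT1, ONECUT2 and ONECUT3, with distance in kb from the lower-numbered gene end on the horizontal axis. Black bars are genes, grey bands the 2-kb windows around gene ends and coloured bars peaks; the EZH2 bars of both replicates overlap at each gene, and H3K27me3 replicate 2 overlies the EZH2 domains of FOXA2, ONECUT1 and ONECUT2.

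FOXA2, a forkhead pioneer factor of endoderm and liver, lies on chromosome 20 from 22580998 to 22585490 between the long non-coding RNA genes LINC00261 and LNCNEF. Replicate 1 of EZH2 had 2 domains here, at 22576181 to 22580309 with 476 tags and at 22581383 to 22588015 with 882 tags. Replicate 2 had 2 as well, at 22576038 to 22580876 with 629 tags and at 22581144 to 22587671 with 908 tags. The lower domain of each replicate also overlaps LINC00261, which ends at 22578642, and does not reach the FOXA2 body. It cannot be assigned to 1 of these genes. The upper domain of each replicate overlies the FOXA2 body and also reaches into LNCNEF, which starts at 22587522. Fold enrichments were 8.02 and 10.71 in replicate 1 and 7.29 and 7.7 in replicate 2, and 85.3% and 91.5% of the joint extents were shared. FOXA2 was almost wholly under EZH2, at 87.4% and 96.9% of the gene and its flanks (92.1% ± 6.71, SD, n = 2), with 0.371% and 0.235% of protein-coding genes covered further. It is also the shortest of the 8 genes, 4.49 kb, and a domain of a given length covers a larger percentage of a short gene.

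THLE-2 JARID2 peaks also lay at FOXA2, in both replicates and inside the EZH2 domain. The replicate 1 peak, 22586549 to 22587432, had 20 tags and a fold enrichment of 13.84, rank 23 of 5351. It lay 1059 bp outside FOXA2 and nearer to LNCNEF, which starts at 22587522, so it cannot be assigned to 1 gene. The replicate 2 peak, 22584831 to 22585746, also had 20 tags, with a fold enrichment of 7.36, rank 4061 of 5526. The authors' false discovery rates were 16.79% and 42.77%. The peaks did not overlap and were 802 bp apart, so the replicates share the gene end and not the position. Members with a gene-end peak were FOXA2 and ONECUT1 in THLE-2 replicate 1, beside 4.21% of protein-coding genes, and FOXA2 in replicate 2, beside 4.38%. In both replicates it was FOXA2 alone, beside 0.356%, and 6 protein-coding genes (0.0300%) had EZH2 in both and JARID2 in both at gene ends. With a window of 1 kb, or with peaks of a MACS score of 100 or more, no member had JARID2 in both THLE-2 replicates.

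FOXA3, on chromosome 19 from 45864326 to 45873797, had an EZH2 peak in replicate 2 alone, from 45863422 to 45865675. Its fold enrichment of 3.68 ranked 3581 of 3637, near the bottom of its list, and it also fell in the end window of the neighbouring gene SYMPK, so the peak cannot be assigned to 1 gene. FOXA1, the forkhead factor of liver and hormone-responsive epithelia on chromosome 14 from 37589552 to 37595249, had no peak over its body or flanks in any of the 8 libraries, and 7779 protein-coding genes (39.0%) likewise had none.

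At 3 of the 4 genes with EZH2, namely FOXA2, ONECUT1 and ONECUT2, the H3K27me3 lists differed between replicates over the EZH2 domains, and at ONECUT3 neither replicate covered the domain. H3K27me3 replicate 2 covered 4129 and 6511 bp of the FOXA2 domains of EZH2 replicate 1, 9263 bp of the ONECUT1 domain and 9602 bp of the ONECUT2 domain, which is the full length of 3 of these 4. Replicate 1 covered 0 bp of every EZH2 domain, with gaps to its nearest peak of 8586 and 880 bp at FOXA2, 2871 bp at ONECUT1, 4134 bp at ONECUT2 and 6911 bp at ONECUT3, where the replicate 2 gap was 6752 bp. The same contrast ran through the 975 protein-coding genes with EZH2 at a gene end in both replicates: an H3K27me3 peak touched the EZH2 replicate 1 domain in 3.18% of them in replicate 1 and in 77.2% in replicate 2. In replicate 1 the gene-end peaks of ONECUT1 and ONECUT2 lie at the end away from the EZH2 domain. At ONECUT1 the replicate 1 peaks run from 52755619 to 52779948, over the body and far end of the gene.

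The tag density, in tags per kb and per M filtered IP tags, without subtraction of input, differed along ONECUT1 and ONECUT2. At ONECUT1, the H3K27me3 replicate 2 domain, 52782714 to 52792340, held 3736 tags, a density of 10.2 tags per kb per M. The other 10 peaks of that library over ONECUT1 had 0.919 to 2.32 (median 1.31), and the 6 peaks of replicate 1 had 1.11 to 1.52 (median 1.27). At ONECUT2 the replicate 2 domain, 57432758 to 57444118, held 3495 tags, a density of 8.08, against 1.01 to 1.98 (median 1.26) in its other 11 peaks and 1.01 to 1.15 (median 1.08) in the 6 peaks of replicate 1. Among the peaks over each gene and its 2-kb flanks, the densest H3K27me3 peak of replicate 2 lay on the EZH2 domain. The medians of the other replicate 2 peaks there were near those of replicate 1. Beyond the flanks, replicate 2 also had peaks off these EZH2 domains with densities of 5.42 near ONECUT1 and 4.46 near ONECUT2. The H3K27me3 replicate 2 peaks on the FOXA2 domains had densities of 4.46 and 6.36, with 1056 and 1705 tags. The fold enrichment was not highest on the domains: it was 5.98 for the domain of each gene, against 4.04 to 13.95 at ONECUT1 and 5.15 to 10.51 at ONECUT2 in the other replicate 2 peaks.

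**Figure D4:**
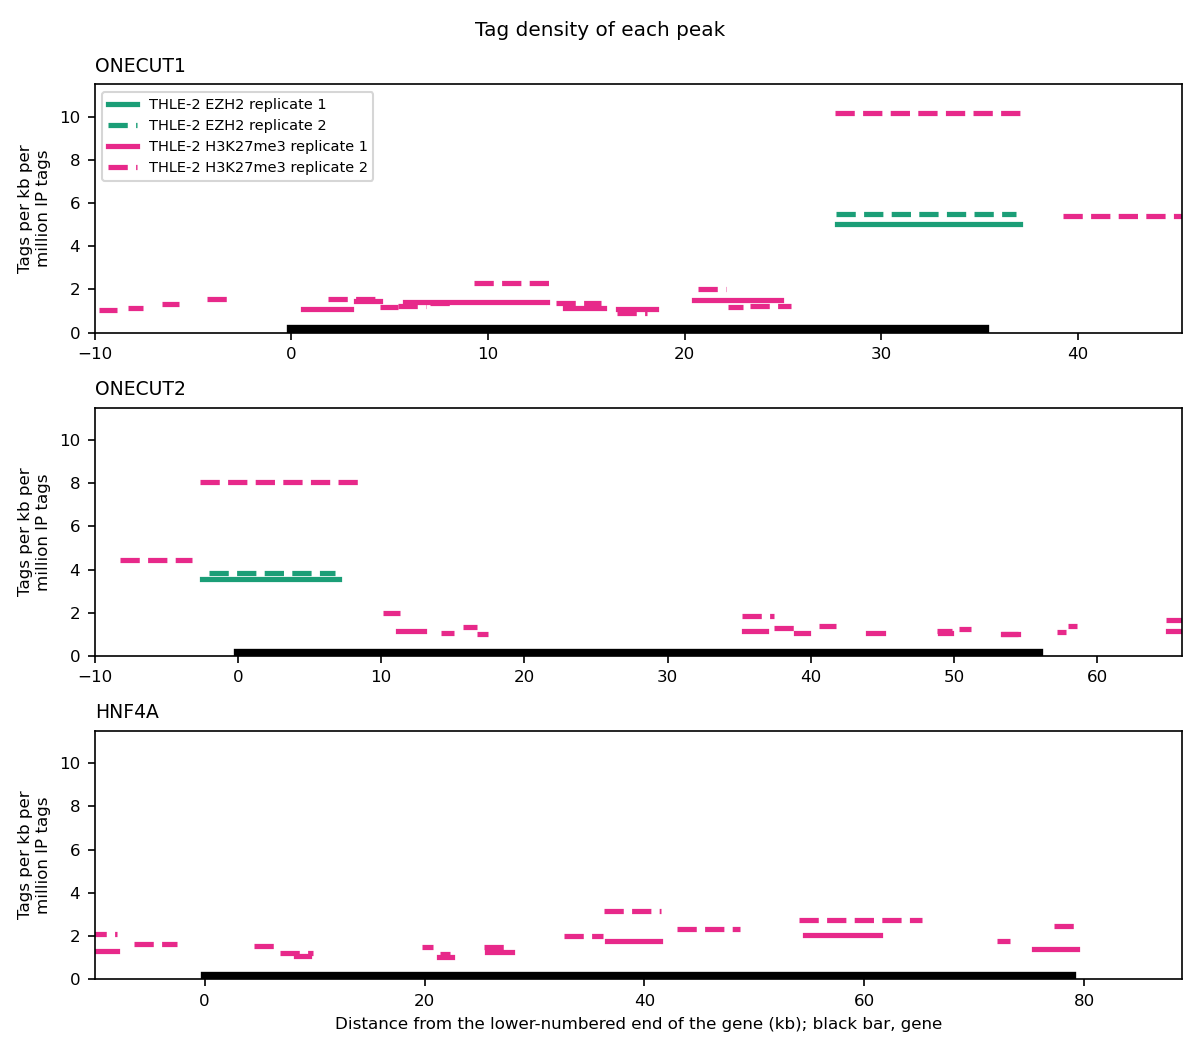
Tag density of EZH2 and H3K27me3 peaks over and around ONECUT1, ONECUT2 and HNF4A (panels, gene as a black bar), in tags per kb per M filtered IP tags (vertical axis) by distance in kb from the lower-numbered gene end (horizontal axis), with replicate 1 solid and replicate 2 dashed. The H3K27me3 replicate 2 peak on the EZH2 domain stands at 10.2 (ONECUT1) and 8.08 (ONECUT2), and no H3K27me3 replicate 1 peak over these 2 genes passes 1.52. HNF4A has no EZH2 peak, and its H3K27me3 peaks reach 2.03 in replicate 1 and 3.16 in replicate 2.

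At gene ends, H3K27me3 peaks were found for 3 members in replicate 1 (HNF4A, ONECUT1, ONECUT2), beside 7.70% of protein-coding genes, and for 4 in replicate 2, with FOXA2 added, beside 19.1%. In both replicates it was the same 3, beside 6.75%. Coverage of ONECUT1 was 49.1% and 70.5% (59.8% ± 15.1, SD, n = 2), of HNF4A 24.1% and 46.7% (35.4% ± 16.0), and of ONECUT2 11.7% and 38.6% (25.2% ± 19.0). ONECUT1 and ONECUT2 were among 157 protein-coding genes (0.786%) with EZH2 and H3K27me3 each called in both replicates at a gene end. That count does not require the same end, and in both genes H3K27me3 replicate 1 was called only at the end without EZH2. The ONECUT2 peak of replicate 1 at that end had a score of 54.0, rank 41911 of 46173, near the bottom of its list. With peaks of a score of 100 or more, ONECUT2 no longer had H3K27me3 at a gene end in both replicates. ONECUT3 was among 123 (0.616%) with EZH2 in both replicates and no H3K27me3 peak over the gene or its flanks in either, the nearest lying 12642 and 12483 bp from the gene. When each list was held to its 2000 highest-scoring peaks, no member had H3K27me3 at a gene end in both replicates. Over gene bodies and flanks the counts were 3 members in replicate 1 (beside 15.2%), 4 in replicate 2 (beside 24.9%) and 3 in both (beside 14.4%).

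HNF4A, on chromosome 20 from 44355699 to 44434596, was the 1 member with H3K27me3 in both replicates and no EZH2, whose nearest peaks were 373658 and 373920 bp away. Over all protein-coding genes, 6.75% had H3K27me3 at a gene end in both replicates, and 0.786% had EZH2 there in both as well. H3K27me3 at a gene end without EZH2 in both replicates was thus the more common state. Among genes of 50 to 200 kb, the length class of HNF4A, 22.8% (replicate 1) and 30.6% (replicate 2) had an H3K27me3 peak over the gene or its flanks. At HNF4A, replicate 1 had 6 peaks over 19970 bp and replicate 2 had 11 over 38689 bp. They shared 17647 bp, which is 88.4% of the extent in replicate 1 and 45.6% of that in replicate 2, so most of the replicate 1 extent recurred in replicate 2. The densities were 1.02 to 2.03 (median 1.33) in replicate 1 and 1.16 to 3.16 (median 1.75) in replicate 2. Both replicates had a peak at the far end, 44431109 to 44435034 with a fold enrichment of 9.53 and 44432966 to 44435337 with 5.72. The antisense gene HNF4A-AS1 and the microRNA gene MIR3646 lie inside HNF4A, and peaks there cannot be assigned to 1 of them.

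HNF4G, on chromosome 8 from 75407649 to 75566834 and the longest of the 8 genes at 159 kb, had JARID2 peaks in HepG2 and no peak of any THLE-2 library. HepG2 replicate 1 had 3, of which the one at the lower-numbered end, 75407106 to 75408305, had 26 tags and a fold enrichment of 7.51. Replicate 2 had 1, from 75533130 to 75533484 with 12 tags and a fold enrichment of 11.29, which overlapped none of the 3. Its length of 355 bp ranked 4008 of 4075. The authors' false discovery rate was 100% for this peak and 0.67% to 1.66% for the 3 of replicate 1. Over gene bodies and flanks, HepG2 JARID2 was called at 2 members in replicate 1 (beside 37.5% of protein-coding genes), 1 in replicate 2 (beside 6.92%) and 1 in both (beside 4.13%). Long genes hold a peak more often: among the 4862 genes of 50 to 200 kb, the length class of HNF4G, the shares were 53.7% in replicate 1 and 12.1% in replicate 2. For THLE-2 JARID2 these counts were 2 (beside 13.9%), 1 (beside 13.6%) and 1 (beside 4.02%). Just outside the window, EZH2 replicate 1 had a peak 2357 bp and H3K27me3 replicate 2 a peak 2112 bp below the gene.

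**Figure D5:**
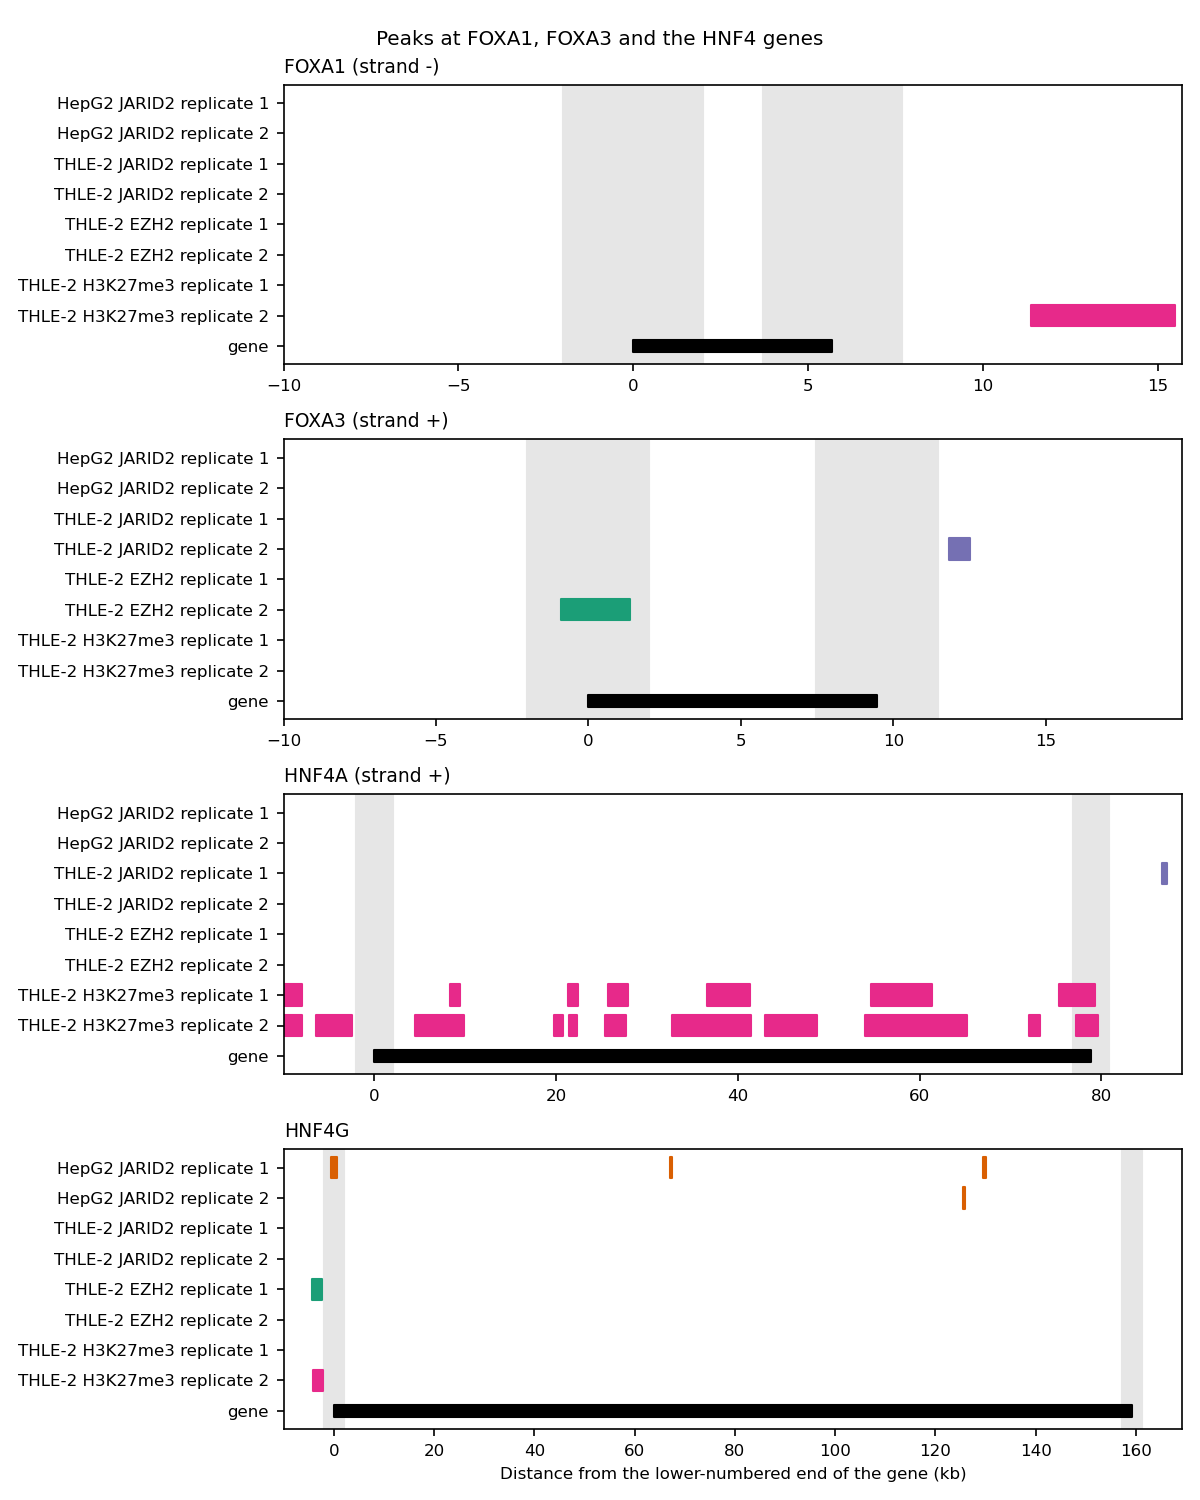
Peaks of the 8 libraries (rows) around FOXA1, FOXA3, HNF4A and HNF4G, drawn as for the EZH2-covered genes with distance in kb from the lower-numbered gene end. FOXA1 has no peak over its body or flanks, HNF4A has H3K27me3 peaks of both replicates, and HNF4G has HepG2 JARID2 peaks that do not coincide between replicates.

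The series sets JARID2 in HepG2 against JARID2 in THLE-2. In HepG2, 2 members had a gene-end peak in replicate 1 (HNF4G and ONECUT1), beside 22.5% of protein-coding genes, and 0 in replicate 2, beside 0.716%, and none had one in both, beside 0.165%. The replicate 1 share of the 8 members is near that background. The means were 1.00 ± 1.41 members in HepG2 and 1.5 ± 0.707 in THLE-2 (SD, n = 2 each), a difference of -0.500 (two-sided exact permutation test over the 4 libraries, p = 1). JARID2 covered 0.365% and 0.0272% of the members in the HepG2 libraries and 1.46% and 1.35% in the THLE-2 libraries, averaged over the 8 genes with flanks. That is 0.196% ± 0.239 in HepG2 and 1.4% ± 0.0756 in THLE-2, a difference of -1.21 percentage points (exact permutation p = 0.3333, the smallest that 2 against 2 libraries allow). Without FOXA2, the other 7 genes gave 0.224% ± 0.273 in HepG2 and 0.0880% ± 0.124 in THLE-2, a difference of 0.136 points in the opposite direction (exact permutation p = 0.6667). Without HepG2 replicate 2 the difference in the number of members was 0.500, also in the opposite direction, and without THLE-2 replicate 1 it was 0.

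Peaks of HepG2 JARID2 replicate 1 lay inside the THLE-2 EZH2 domains of 3 of the 4 members with EZH2, and HepG2 replicate 2 had none in these domains. Over the 975 genes with EZH2 at a gene end in both replicates, the shares with a HepG2 JARID2 peak on the EZH2 replicate 1 domain were 46.4% in replicate 1 and 0% in replicate 2. Among the 197 whose domain was at least as long as that of FOXA2 (6633 bp), the replicate 1 share was 53.3%, so a HepG2 replicate 1 peak was common on such domains. For THLE-2 JARID2, 2 of the 4 members in replicate 1 and 1 in replicate 2 had such a peak, beside 6.26% and 6.36% of the 975 genes. Among the 197 genes with the longer domains, the THLE-2 JARID2 shares were 12.2% and 11.7%. At ONECUT1 the HepG2 peak, 52790242 to 52790861 with 12 tags and a fold enrichment of 8.53, spans the start, and the THLE-2 JARID2 replicate 1 peak, 52789506 to 52789989 with 16 tags and a fold enrichment of 8.76, lay 252 bp away. Neither summit was near the EZH2 summits of replicates 1 and 2. The distances were 5436 and 5520 bp for the HepG2 peak and 4822 and 4906 bp for the THLE-2 peak. At FOXA2 the HepG2 peak, 22578339 to 22578696 with 11 tags and a fold enrichment of 13.81, lay 2302 bp outside the gene, and its summit was 73 and 108 bp from the EZH2 summits of replicates 1 and 2. It overlaps the end of LINC00261, at 22578642, and cannot be assigned to 1 gene. The THLE-2 JARID2 peaks at FOXA2 lie in the other EZH2 domain. Their summits were 4687 and 4079 bp (JARID2 replicate 1) and 2860 and 2252 bp (JARID2 replicate 2) from the summits of that domain. At ONECUT3 the HepG2 peak, 1749081 to 1750151 with 25 tags and a fold enrichment of 14.22, lay 3355 bp below the gene, with its summit 29 and 41 bp from the EZH2 summits. The EZH2 domains are those of THLE-2, so the HepG2 positions compare 2 lines as well as 2 proteins. ONECUT2 had no JARID2 peak in any of the 4 libraries.

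Among 28 other liver transcription factors, chosen as a list by role, 4 (14.3%) had EZH2 at a gene end in both THLE-2 replicates. They were CEBPA, a leucine zipper factor of hepatocytes (12.82 and 5.22 fold enrichment in replicates 1 and 2), the nuclear receptor ESRRG (7.25 and 6.92), and the endoderm factors GATA6 (8.88 and 8.06) and SOX17 (14.63 and 4.39). H3K27me3 in both was at 2 (7.14%), GATA4 (10.09 and 11.18) and NR1H4, the bile acid receptor (9.17 and 11.16). JARID2 in both was at 0 in either line, beside 0.165% of protein-coding genes in HepG2 and 0.356% in THLE-2. Of 20 hepatocyte genes that these factors are known to regulate, 0 had EZH2 in both replicates and 5 (25.0%) had H3K27me3. These were AHSG, for a plasma glycoprotein (6.76 and 10.86), the gluconeogenic enzymes G6PC1 (14.0 and 7.18) and PCK1 (12.51 and 12.28), TAT, for tyrosine breakdown (12.27 and 14.14), and TTR, for transthyretin (10.76 and 11.72). Of 42 other forkhead genes, 15 (35.7%) had EZH2 in both replicates. H3K27me3 lay at 2 of the 42 in replicate 1, beside 7.70% of protein-coding genes, and at 20 in replicate 2, beside 19.1%. It lay at 1 in both (2.38%), FOXI3, named after its values were seen. Of the 15 with EZH2, 1 had an H3K27me3 gene-end peak in replicate 1 and 14 had one in replicate 2. The 4 liver factors with EZH2 gave 0 and 4. HepG2 JARID2 replicate 1 had gene-end peaks at 8 of the 28 liver factors, 23 of the 42 forkhead genes and 0 of the 20 hepatocyte genes, beside 22.5% of protein-coding genes. Replicate 2 had them at 0 of each of these lists, beside 0.716%. The counts in both replicates stand beside 4.88% for EZH2 and 6.75% for H3K27me3 over all protein-coding genes, and no list was tested against these shares.

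The genes whose pattern was most like that of a member were named by the Euclidean distance of the percentage of their gene-end windows under peaks over the 8 libraries, for the 3 members with peaks in 4 or more of them. For FOXA2 these were PTF1A, BSX and GSC, at distances of 14.4, 14.5 and 15.3 percentage points, and for ONECUT2 FAM181B, PAX1 and DRGX, at 6.12, 6.86 and 7.17. For ONECUT1 they were ESRP1, DMRT3 and LINGO2, at 9.08, 12 and 12. HepG2 JARID2 replicate 1 covered 7.75% of the ONECUT1 windows and 7.96% of the ESRP1 windows, and none of those of DMRT3 and LINGO2.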

How the data were processed

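ChIP-seq of JARID2, EZH2 and H3K27me3 was analysed from 8 deposited peak lists, 1 per IP library. The build GRCh38 and the tools MACS 1.4.2, Bowtie2 and cutadapt are listed in the submitters' processing notes, without versions for Bowtie2 and cutadapt. MACS, per the file headers, compared each IP library with its own input at a p cutoff of 1e-05 with at most 1 tag per position, scaled the larger library to the smaller, and did not pool replicates. For each peak the authors deposited the tag count in the IP library, a score (the log10 of the peak's p-value multiplied by -10), a fold enrichment, which is a ratio over local input, and a percent false discovery rate. The protocol names a JARID2 antibody for HepG2 JARID2 replicate 1 alone, so targets were taken from the labels' titles.

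Peaks on chromosomes 1 to 22 and X were joined by at least 1 bp to RefSeq GRCh38.p14 genes with Python 3.11.15, pandas 2.3.3 and numpy 2.4.6. The gene table holds no strand, so both gene ends were used, within 2 kb; strand came from the promoter table. A member counted for a group when both replicates had a peak. Between lines, JARID2 values were compared with a two-sided exact permutation test over the 4 libraries. Window functions were tested on simulated data. The 8 members are always named; other genes were named by list, as those with a gene-end peak in both replicates of a group, and by distance. The members and lists were chosen with earlier results of these data known. Alternatives covered windows, scores, summits, top peaks and left-out replicates. No intervals are given for peak presence. Counts for 1 further gene list are not reported here.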

Additional observations from a re-analysis of the deposited data

How the results depend on the processing

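The number of members with a gene-end peak in both replicates was 0 for HepG2 JARID2, 1 for THLE-2 JARID2, 4 for EZH2 and 3 for H3K27me3. HepG2 JARID2 gave 1 (HNF4G) over the whole gene body and 2 kb on each side, and 0 to 2 with 1 replicate left out. THLE-2 JARID2 gave 0 with a 1-kb window, 0 with peaks of a MACS score of 100 or more, and 1 to 2 with 1 replicate left out. EZH2 gave 2 when the summit had to lie in the window, 4 to 5 with 1 replicate left out, and 4 otherwise. H3K27me3 gave 0 with the 2000 highest-scoring peaks of each list, 2 with a 1-kb window, a score of 100 or more or the summit in the window, 4 with a 5-kb window, and 3 to 4 with 1 replicate left out. The JARID2 difference in members, HepG2 minus THLE-2, was -0.500, and 0 with windows of 1 or 5 kb or a score of 100 or more, -1.50 with the 2000 highest-scoring peaks (exact p = 0.3333), 0.500 without FOXA2, and -1.50 to 0.500 with 1 replicate left out. The difference in coverage was -1.21 points, -0.760 and -0.553 with flanks of 1 and 5 kb, 0 at a score of 100 or more, 0.136 without FOXA2, and -1.37 to -1.04 with 1 replicate left out. HepG2 JARID2 coverage was 0.196%, 0.0136% with the 2000 highest-scoring peaks and 0% at a score of 100 or more. THLE-2 JARID2 coverage was 1.4%, 1.00% over gene bodies alone and 0% at a score of 100 or more. H3K27me3 coverage was 20.9%, 8.91% with the 2000 highest-scoring peaks, 16.1% at a score of 100 or more, and 10.6% and 31.1% in the single replicates. The cause of these changes was not tested. Leaving out FOXA2, the same gene end in both replicates and coverage without a replicate were chosen after seeing the data. No paired analysis was possible because the results compare peak lists called per library and replicate numbers are not stated to mark shared cultures or days. With 2 libraries per group, no exact p can fall below 0.3333, and depth and false discovery rates differ between lists.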

Other observations

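Around the 8 genes, within 100 kb, peaks were counted beyond the gene and its 2-kb flanks. No count over all protein-coding genes was made for these windows, so the numbers are not read as particular to any gene. H3K27me3 peaks around FOXA2 numbered 23 in replicate 1 and 44 in replicate 2, around ONECUT2 16 and 25, and around HNF4A 9 and 16. ONECUT1 had 3 and 20. ONECUT3 had 4 and 8, all outside the gene, and HNF4G had 1 and 5. FOXA1 had 0 and 1, the 1 with a fold enrichment of 4.27. EZH2 peaks outside the genes numbered 0 in replicate 1 and 2 in replicate 2 at both ONECUT1 and ONECUT2, and 0 in both replicates at FOXA1 and HNF4A. The EZH2 lists are much shorter, with 2112 and 3690 peaks against 46198 and 90524 for H3K27me3, so the counts of the 2 targets are not comparable. HepG2 JARID2 replicate 1 had 5 such peaks around ONECUT3 and 4 around HNF4A, while replicate 2 had none around either gene.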
